A study of Mus musculus with 18 samples.

Results

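A set of 58 genes of mouse chromosome 8 was followed across 6 pluripotent mouse cell lines. The members were selected on the measured difference of each line from the mean of the other 5 lines, and they were chosen by a model with those results in view, so every value of a member in that contrast is a description and carries no p-value. Of the 58 genes, 56 had a probe set assigned to a single gene symbol, and Acsl1 and Cnot1, which had none, were not analysed here. The 56 measured members stood among 932 measured genes of chromosome 8 and 18193 measured genes in all.

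The study compared embryonic stem (ES) cells with induced pluripotent stem (iPS) cells, which are made from differentiated cells by reprogramming. Total RNA of each line was hybridised to Affymetrix expression arrays, 3 arrays per line and 18 in all. The ES lines were R1, of strain 129X1/SvJ x 129S1 F1, and ESC2, of strain B6 x D2 F1. The strain of the iPS lines IP14D-1, IP20D-3 and IP36D-3 was B6 x D2 F1, while that of IP14D-101 is given as B6 x 129S2 F1. All lines grew on mitomycin C treated mouse embryonic fibroblast (MEF) feeders with LIF, in medium with FBS or with KOSR serum replacement. No label ties either medium to a line. The design text calls the 3 arrays of a line biological replicates, and no label names separate thaws, passages or dishes, so standard errors (SE) between lines measure only the spread between these arrays, which may be technical. Each line is a single culture line, so a difference between lines is not a difference between strains or cell types.

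Chromosome 8 of the mouse carries genes of many unrelated functions, among them the neighbouring metallothionein genes Mt1 and Mt2, whose small cysteine-rich proteins bind zinc and copper, the insulator protein gene Ctcf, and Cdh1, which encodes the E-cadherin that holds epithelial and pluripotent cells together. Its genes do not form a single co-regulated group, but cultures of mouse ES cells are known to gain copies of whole chromosomes, with chromosome 8 among those gained most often. DNA copy number was not analysed here.

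Expression is given as log2 of the deposited probe set intensity, and each gene was read from its probe set with the highest mean. A gene is termed called higher or lower in a line where limma gave an adjusted p under 0.05 over all 18193 genes and a log2 difference of at least 0.5. All 10 pluripotency markers, Pou5f1 and Nanog among them, had a mean log2 intensity of at least 6 in every line. Array medians lay between 29.2 and 30.5 intensity units over the 18 arrays, and the number of arrays limits the precision of each value. The mean log2 level of 15 fibroblast genes, which the feeders express, of which 4 to 8 had a mean of at least 6 in a line and Cdh11 or Col6a1 was the lowest, ran over the arrays of a line from 6.73 to 6.87 in IP14D-1, from 6.42 to 6.58 in ESC2, from 6.09 to 6.14 in R1, from 5.76 to 5.95 in IP14D-101, from 5.43 to 5.55 in IP36D-3 and from 5.20 to 5.39 in IP20D-3. The part of these feeder levels in the differences described here was not tested. Of 10 primitive endoderm markers, 9 had a mean of at least 6 in IP14D-101, where the list's array means ran from 7.77 to 7.92, against 4.76 to 5.52 in the arrays of the other lines. The mean ratio of 3′ to 5′ actin signal, a sign of RNA integrity, was 1.53 ± 0.0433 (SD, n = 3) in ESC2 and between 1.13 and 1.28 in the other lines. The 18S probe sets, which read ribosomal RNA, ranged from 24.8 to 57.5 intensity units in R1, IP14D-1 and IP14D-101 and from 107 to 525 in ESC2, IP20D-3 and IP36D-3.

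The members had their most uniform pattern in the iPS line IP36D-3. There, 46 of the 56 members lay above the mean of the other 5 lines, with a median log2 difference of 0.35, or 1.28-fold, and an interquartile range from 0.13 to 0.60. The members' differences ran from -0.44 for Ankrd11 to 1.07 for Nqo1. In this line 18 members were called higher and 0 lower, beside 6.46% of all genes called higher and 3.73% called lower, shares from which nothing is read because this contrast chose the members. All 3 IP36D-3 arrays lay above all 15 other arrays for 17 members (30.4%), for 177 of the other 876 chromosome 8 genes (20.2%) and for 4.65% of all genes. IP36D-3 was the highest of the 6 lines for 22 of the 56 members, for 34% of the other chromosome 8 genes and for 12.6% of all genes, and it was the lowest for 1 member and for 12.4% of all genes. Centred on each gene's mean over the lines, the members' median was 0.299, 0.312 and 0.303 in the 3 IP36D-3 arrays, and each of these 3 values stood above those of the other 15 arrays, of which the highest was 0.0507, in IP20D-3.

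The other 5 lines had smaller medians. The members' median log2 difference was 0.07 in IP20D-3, -0.01 in R1, -0.05 in IP14D-101, -0.12 in IP14D-1 and -0.17 in ESC2, where the medians over all genes were -0.07, 0.09, 0.08, -0.01 and -0.09, in the same order. These values depend on IP36D-3 being among the comparator lines. Without it, the median was 0.10 in R1 and 0.01 in IP14D-101, -0.04 in IP14D-1 and -0.09 in ESC2. In IP20D-3 the median was 0.02 without its replicate 3 and likewise 0.02 without ESC2 among the comparators. ESC2 was the lowest of the 6 lines for 15 members, a share near the 26.4% of all genes for which it was lowest.

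**Figure D1:**
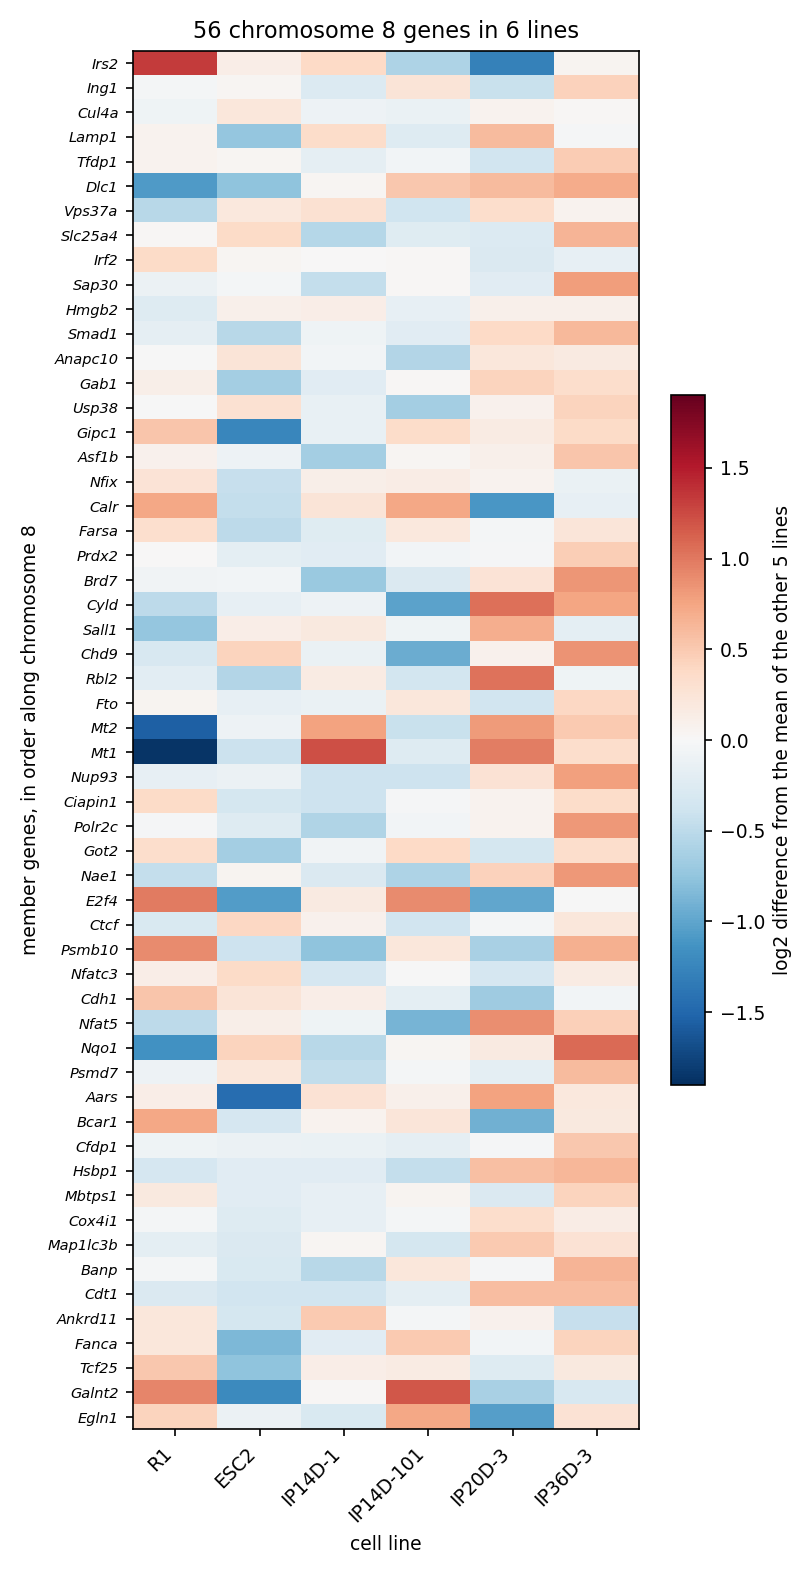
Log2 difference of each of the 56 measured members (rows, in order along chromosome 8) from the mean of the other 5 lines, in each of the 6 lines (columns). Red cells are higher and blue cells lower than the other lines. The IP36D-3 column is red for most members, with Ankrd11 and Galnt2 as its lowest cells, and the deepest blue cells are Mt1 and Mt2 in R1.

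The elevation in IP36D-3 was also present in chromosome 8 genes outside the member list. The other 876 measured genes of the chromosome had a median of 0.19, and 256 of them (29.2%) were called higher and 15 (1.71%) lower. Many of these genes had signals near background. Among the 447 with a mean log2 intensity of at least 6 the median was 0.48, or 1.39-fold, 86.6% lay above 0, and 212 (47.4%) were called higher. The 53 members at that level had a median of 0.39, or 1.31-fold, so the members did not lie above the rest of their chromosome. Over all genes at that level the median was 0.09 and 10.1% were called higher. The members Irf2, Nfix and Rbl2 had means under 6 and differed by -0.15, -0.13 and -0.08 in IP36D-3.

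Among the 20 chromosomes compared, chromosome 8 had the highest median in IP36D-3. The members were chosen with these line contrasts in view, and all lie on this chromosome. Its rank and the values of its other genes are therefore a description. Its 500 genes with a mean of at least 6 had a median of 0.46, against 0.0204 to 0.19 for the other 19 chromosomes, and 46% of them were called higher, against 4.58% to 14.5%. In ESC2 and IP14D-1 the chromosome had the lowest median of the 20, with -0.22 in each, against -0.19 to 0.18 and -0.13 to -0.00241 for the other chromosomes. IP36D-3 is 1 of the 5 comparators of every other line, so its high level lowers the differences of all of them. Its part in the low rank in ESC2 and IP14D-1 was not tested. Chromosome 8 ranked in the 11th place in R1, the 14th in IP14D-101 and the 6th in IP20D-3.

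**Figure D2:**
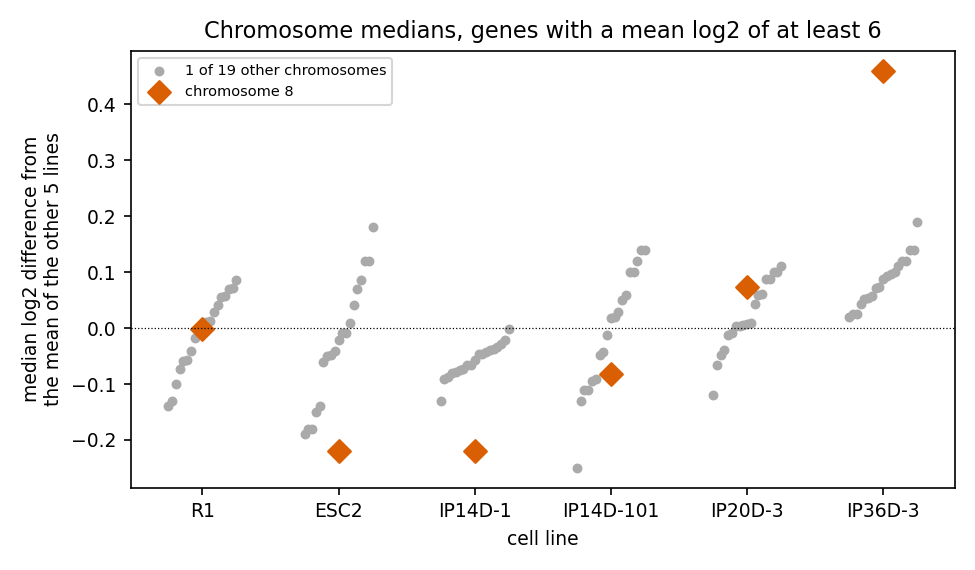
Median log2 difference from the mean of the other 5 lines (y axis) over the genes of each chromosome with a mean log2 intensity of at least 6, in each of the 6 lines (x axis). Each grey point is 1 of 19 other chromosomes and the orange diamond is chromosome 8, which stands at 0.46 in IP36D-3 with the other chromosomes at 0.19 or below, and at -0.22 in ESC2 and IP14D-1.

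Among genes with a mean of at least 6, the higher signal in IP36D-3 ran along the whole chromosome. When its 932 genes were taken in chromosome order in 10 blocks of 93 or 94, the median over genes with a mean of at least 6 was 0.50, 0.44, 0.56, 0.58, 0.40, 0.43, 0.52, 0.45, 0.44 and 0.38 from the first block to the last. Over all genes of a block, those near background included, the medians were lower, from 0.05 in the second block to 0.37 in the 6th. The members lay in 8 of these blocks, most densely in the 7th, which holds 12 of them from Cyld to Nae1, and their block medians ran from 0.05 to 0.45. The lowest of these was that of the first block, where Irs2, Cul4a and Lamp1 differed by 0.05, 0.02 and -0.02 and Ing1 and Tfdp1 by 0.44 and 0.48. In IP14D-1 the same blocks had medians between -0.29 and -0.17.

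**Figure D3:**
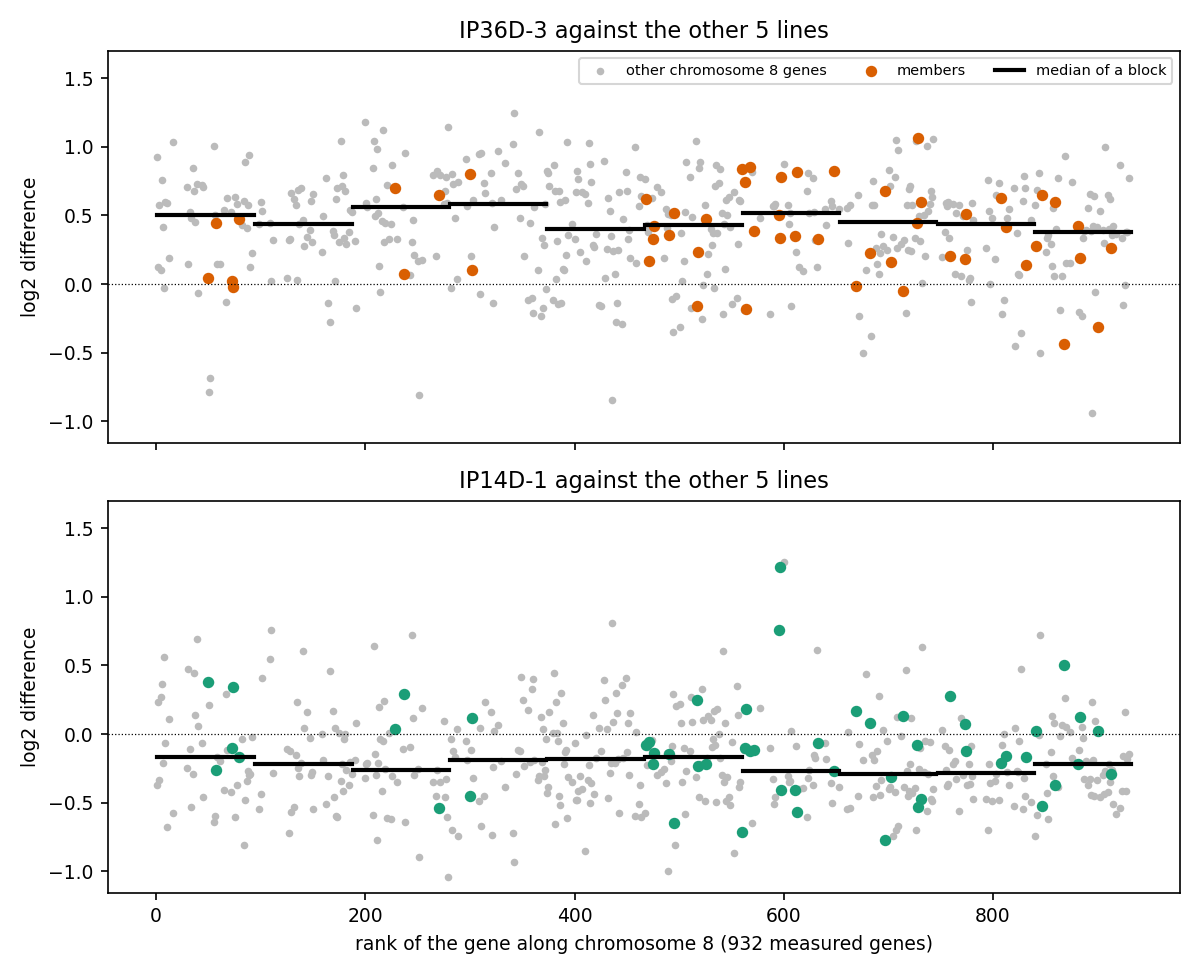
Log2 difference from the mean of the other 5 lines (y axis) of the chromosome 8 genes with a mean log2 intensity of at least 6, by rank along the chromosome (x axis), in IP36D-3 (upper panel) and IP14D-1 (lower panel). Coloured points are members, grey points other genes, and black bars the medians of 10 consecutive blocks, which lie between 0.38 and 0.58 in IP36D-3 and between -0.29 and -0.17 in IP14D-1.

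By role, the chromatin and general transcription genes had the highest median in IP36D-3. The median difference of the 10 measured genes was 0.58, 9 of them lay above 0 and 6 were called higher. The 447 other chromosome 8 genes with a mean of at least 6 had a median of 0.48, with 86.6% above 0 and 47.4% called higher. No role was tested against the chromosome. Chd9, which encodes a chromodomain helicase, measured 9.63, 9.66 and 9.43 (log2) in IP36D-3, against a lowest, median and highest of 7.57, 8.76 and 9.26 in the other 15 arrays. The groups did not overlap, and the difference of 0.85 ± 0.12 (SE) was 1.80-fold. This SE, like those of the other line contrasts, comes from the limma fit, with the spread pooled over the 18 arrays of all 6 lines. For Brd7, a bromodomain subunit of the PBAF chromatin remodeller, the IP36D-3 arrays read 9.50, 9.71 and 9.46 and the others 8.19, 8.79 and 9.14. That gene differed by 0.84 ± 0.06, again without overlap. Polr2c, a core subunit of RNA polymerase II, was higher by 0.82 ± 0.06, Sap30, a subunit of the Sin3 histone deacetylase complex, by 0.80 ± 0.05, and Banp, a nuclear matrix-associated DNA-binding protein, by 0.65 ± 0.08. For each of these 3 genes the IP36D-3 arrays lay above all others. Cfdp1, a craniofacial development protein found in chromatin, lay just above the threshold at 0.51 ± 0.06. Ctcf, Tcf25 and the chromatin protein gene Hmgb2 differed by 0.22, 0.19 and 0.10.

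Ankrd11, a chromatin regulator with ankyrin repeats, was the lowest member in IP36D-3. Its arrays read 9.10, 9.19 and 9.24 there, within the range of the other arrays, which had a lowest, median and highest of 9.14, 9.63 and 10.16. The difference was -0.44 ± 0.08, and 2 of the gene's 6 other probe sets shared its sign. The difference was 0.08 in its second probe set and 0.04 in the mean of all its probe sets, so the direction of Ankrd11 is uncertain.

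Genes of protein and organelle degradation followed with a median of 0.51, 7 of 8 above 0 and 4 called higher. Nae1 encodes a subunit of the enzyme that activates the ubiquitin-like protein NEDD8. Its IP36D-3 arrays read 11.50, 11.49 and 11.51, above all others at 10.15, 10.58 and 11.24 (lowest, median and highest), a difference of 0.82 ± 0.06. Psmd7, a subunit of the proteasome's regulatory particle, was higher by 0.60 ± 0.06 without overlap. Cyld, a deubiquitinase that restrains NF-kappaB signalling, differed by 0.75 ± 0.06 and the immunoproteasome subunit gene Psmb10 by 0.68 ± 0.08, and for both the IP36D-3 arrays overlapped the others, since Cyld was higher still in IP20D-3 and Psmb10 in R1. Usp38, another deubiquitinase, differed by 0.42, the autophagy gene Map1lc3b by 0.28, the endosomal sorting gene Vps37a by 0.07 and the lysosomal membrane gene Lamp1 by -0.02.

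Among 9 genes of the cell cycle, replication and genome upkeep, the median was 0.42, and 2 were called higher. Cdt1, which licenses replication origins, measured 12.39, 12.44 and 12.33 in IP36D-3 and 11.56, 11.67 and 12.41 (lowest, median and highest) elsewhere, where the arrays of IP20D-3 overlapped it. The histone chaperone gene Asf1b was higher by 0.52 ± 0.07 without overlap. Just under the threshold lay Tfdp1, the dimerisation partner of the E2F factors, at 0.476 ± 0.05, whose 3 arrays were nonetheless above all 15 others. Ing1, an inhibitor of growth protein, differed by 0.44, the DNA repair gene Fanca by 0.42, the anaphase-promoting complex gene Anapc10 by 0.17 and the ubiquitin ligase scaffold gene Cul4a by 0.02. E2f4, a repressive E2F factor, differed by -0.01 and its pocket protein partner Rbl2 by -0.08.

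All 10 measured genes of mitochondria, metabolism, redox and metal binding lay above 0 in IP36D-3, with a median of 0.37. Nqo1, a quinone reductase and a well-known target of the oxidative stress factor NRF2, had the largest difference of any member. It measured 8.23, 8.37 and 8.52 in IP36D-3, against 6.40, 7.46 and 8.0 (lowest, median and highest) in the other arrays. The groups did not overlap and the difference was 1.07 ± 0.07, or 2.09-fold. It was the only member past a log2 difference of 1 in this line. Slc25a4, the ADP/ATP carrier of the mitochondrial inner membrane, was higher by 0.65 ± 0.06, and its 3 other probe sets shared the sign. The peroxide-reducing Prdx2 lay just under the threshold at 0.473 ± 0.05 without overlap. Its other probe set, with a mean of 8.16, differed by 1.85 in IP36D-3 and by -2.04 in R1. The size of the Prdx2 difference is therefore uncertain. Mt2 lay just under the threshold at 0.50 ± 0.05 after rounding. The demethylase gene Fto, the iron-sulfur assembly gene Ciapin1, Got2 and Mt1 differed by 0.39, 0.35, 0.33 and 0.33, the oxygen sensor gene Egln1 by 0.27 and the cytochrome c oxidase subunit gene Cox4i1 by 0.14.

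The remaining roles had lower medians. Of 7 genes of protein synthesis, folding and transport, with a median of 0.23, the nuclear pore gene Nup93 was higher by 0.78 ± 0.06, with all IP36D-3 arrays above the others, and the heat shock factor-binding gene Hsbp1 by 0.63 ± 0.05. The protease gene Mbtps1 differed by 0.42, the tRNA synthetase genes Farsa and Aars by 0.23 and 0.20, the chaperone gene Calr by -0.16 and the glycosyltransferase gene Galnt2 by -0.31. Against lines of the same strain label Calr and Galnt2 differed by 0.23 and 0.24, and Galnt2 by 0.21 in its second probe set. Of 6 signalling and adhesion genes, with a median of 0.25, only Dlc1, known as a tumour suppressor gene, was called higher, by 0.70 ± 0.06. The IP36D-3 arrays of Dlc1 overlapped those of other lines. Its second probe set, with a mean of 8.61, differed by only 0.03. The remaining Dlc1 probe sets, with means under 6, differed by 0.92 and -0.48, so the size of the Dlc1 difference is uncertain. Gipc1, Gab1, Bcar1, Irs2 and Cdh1 differed by 0.36, 0.33, 0.18, 0.05 and -0.05. The 6 transcription factors of signalling and development had a median of 0.01, which rests in part on Irf2 and Nfix, with means under 6 and differences of -0.15 and -0.13. The BMP effector gene Smad1 was higher by 0.62 ± 0.07, the osmotic stress factor gene Nfat5 differed by 0.45 and Nfatc3 by 0.16, and the zinc finger gene Sall1 by -0.18.

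**Figure D4:**
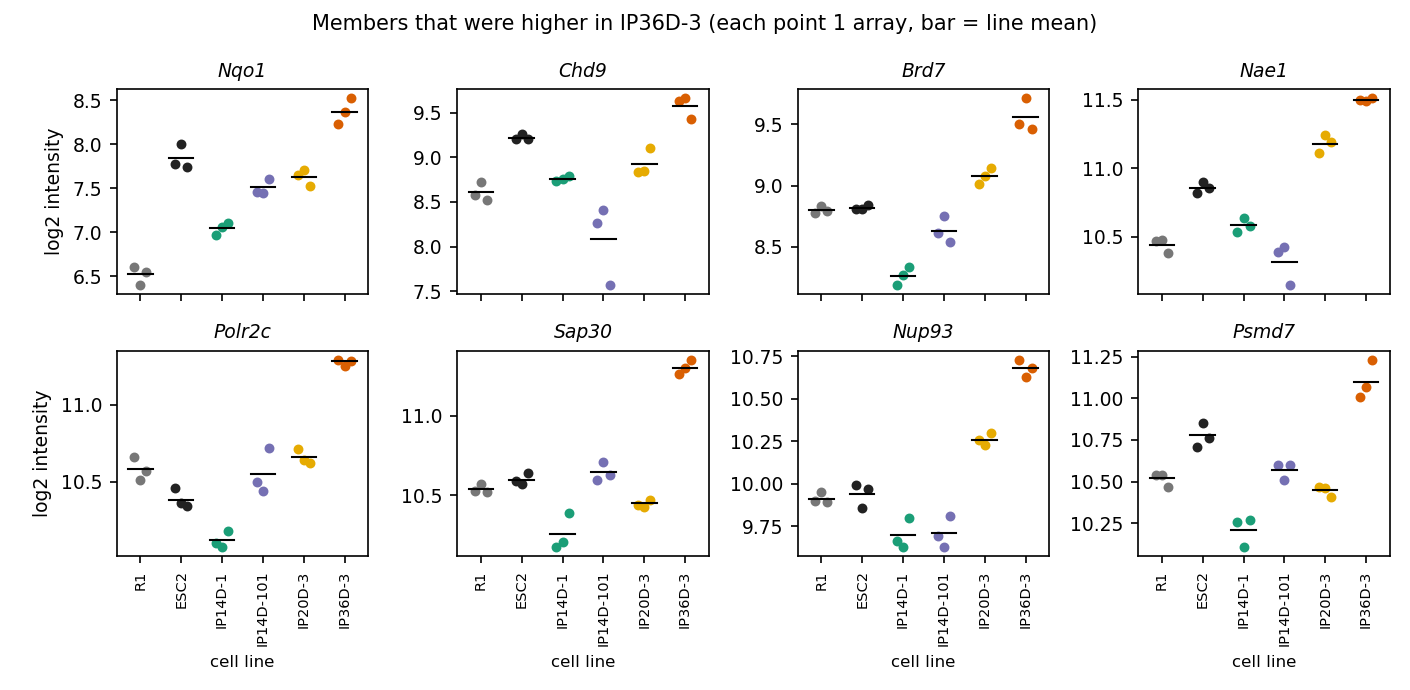
Log2 intensity (y axis) of 8 members in the 6 lines (x axis), with 1 point per array and a bar at the mean of the 3 arrays. For each of the 8 genes the 3 IP36D-3 arrays, on the right, lie above the other 15 arrays, with differences from 0.60 for Psmd7 to 1.07 for Nqo1.

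By signal level, the members with means of 6 to 8, 8 to 10 and at least 10 had medians of 0.42, 0.40 and 0.34 in IP36D-3. The other chromosome 8 genes at these levels had 0.38, 0.53 and 0.49, and genes off chromosome 8 had 0.06, 0.10 and 0.06. Of the members' 77 other probe sets, 46, belonging to 31 members, had a mean of at least 6, and their median difference in IP36D-3 was 0.31 with 35 above 0. These probe sets read the same RNA and are not replicates. The probe sets of Irf2, Anapc10, Usp38, Mt1, Ciapin1, Nfatc3, Bcar1 and Nfix carry a suffix that marks probes shared with related transcripts, so their values are less certain.

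Mt1 had the widest range of line means of the 56 measured members, and both metallothionein genes were lowest in R1. Mt1 measured 10.18, 9.93 and 10.10 in R1, against a lowest, median and highest of 11.24, 11.95 and 12.67 in the other 15 arrays. Mt2 measured 10.99, 10.90 and 10.87 in R1 and 11.80, 12.65 and 12.96 elsewhere. For neither gene did the R1 arrays overlap the others, and the genes were lower by 3.64-fold and 2.92-fold (log2 differences of -1.86 ± 0.08 and -1.55 ± 0.05). The genes were high in IP14D-1, by 1.22 ± 0.08 and 0.76 ± 0.05, and in IP20D-3, by 0.97 ± 0.08 and 0.81. In these lines the arrays of each gene overlapped those of other lines. The line means of the neighbouring genes correlated with an r of 0.97 over the 6 lines, which is a description, and Mt1's probe set may share probes with related transcripts. The other pairs of near neighbours that were computed had lower values, with an r of 0.64 for Brd7 and Cyld, 0.52 for Nfat5 and Nqo1, 0.49 for Calr and Farsa, 0.08 for Chd9 and Rbl2, 0.09 for Sap30 and Hmgb2, 0.05 for Bcar1 and Cfdp1 and -0.47 for Cul4a and Lamp1. Which serum each line had, and so the part of the medium in the metallothionein levels, was not tested.

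Metallothionein genes are induced by zinc and cadmium through metal response elements in their promoters, to which the factor MTF1 binds. The promoters of Mt2 and Mt1 are shown because these neighbours varied together across the lines. The sequences are from RefSeq (GRCm38.p6), cover 250 bases before to 50 after the annotated start, on the plus strand, at chr8:94172368-94172667 for Mt2 and chr8:94178839-94179138 for Mt1, and have the metal response elements in capitals (TGCGCNC or TGCACNC, searched on both strands).
Mt2: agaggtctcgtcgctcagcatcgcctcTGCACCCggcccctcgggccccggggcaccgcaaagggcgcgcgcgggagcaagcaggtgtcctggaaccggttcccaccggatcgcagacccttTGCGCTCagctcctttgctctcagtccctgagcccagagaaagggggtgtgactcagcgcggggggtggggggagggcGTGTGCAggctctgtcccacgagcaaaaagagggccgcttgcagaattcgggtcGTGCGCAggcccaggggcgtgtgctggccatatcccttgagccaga
Mt1: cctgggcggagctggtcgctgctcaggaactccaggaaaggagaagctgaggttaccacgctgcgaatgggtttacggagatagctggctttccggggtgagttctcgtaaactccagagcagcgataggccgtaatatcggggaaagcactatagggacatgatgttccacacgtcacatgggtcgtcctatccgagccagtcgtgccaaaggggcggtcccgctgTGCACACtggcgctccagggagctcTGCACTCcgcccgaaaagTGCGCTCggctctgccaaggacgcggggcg
Mt2 holds 4 matches, 2 on each strand, and Mt1 holds 3, all on the plus strand, none of which overlaps another. At least 1 match was found in 25.7% of the 32851 promoters in the table, at least 3 in 1.97% and at least 4 in 0.517%. RefSeq promoters were matched for 48 of the 58 genes, 65 promoters in all. Of these, 28 (43.1%) held a metal response element match, 9 (13.8%, against 12.4% of all promoters) the antioxidant element TGACNNNGC, and 4 (6.15%, against 1.56%) an E2F match (TTTCCCGC or TTTGGCGC). The E2F matches lay in Brd7, Cdt1, Irs2 and Polr2c. A match describes these letters only, and the members' promoters are not set against a test.

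R1 differed from the other lines in several further members. Of the 56, 9 were called higher, beside 8.93% of all genes, and 7 lower, beside 8.40%. This split became 6 higher and 9 lower when each line was centred on its median difference over all genes. At a mean of at least 6, 12.5% of all genes were called higher and 13.6% lower, against 17% and 13.2% of the 53 members. Irs2, an adaptor of the insulin receptor, measured 7.15, 7.43 and 7.28 in R1, above all other arrays at 4.99, 6.06 and 6.73 (lowest, median and highest). E2f4, Galnt2 and Psmb10 were higher by 0.99 ± 0.06, 0.93 ± 0.08 and 0.90 ± 0.08, each with overlap. Below the other arrays lay Nqo1, at 6.61, 6.40 and 6.55 against 6.97, 7.65 and 8.52, and Dlc1, at 8.47, 8.42 and 8.39 against 8.60, 9.77 and 9.97. Of the 6 signalling and adhesion genes, Irs2, Gipc1, Cdh1 and Bcar1 were called higher in R1 and Dlc1 lower. The members were chosen on these contrasts and the roles with results known, so these calls are a description.

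ESC2 had 12 members called lower, beside 10.8% of all genes, and 0 higher, beside 7.74%. At a mean of at least 6, 15.9% of all genes were called lower and 11.8% higher, against 20.8% and 0% of the 53 members. With IP36D-3 left out of its comparators 3 members were called higher, and with equal array medians off chromosome 8 the split was 3 higher and 10 lower. Aars, the alanyl-tRNA synthetase gene, measured 10.36, 10.13 and 10.14 in ESC2 and 11.39, 11.59 and 12.08 (lowest, median and highest) in the other arrays, and was 2.73-fold lower with no overlap. Gipc1, a scaffold for membrane receptors, was lower by 2.37-fold and Galnt2 by 2.32-fold, both below all other arrays, while E2f4 was lower by 2.08-fold with overlap. Among genes with a mean of at least 6, 45.2% of all and 28.9% of the other chromosome 8 genes lay above 0 in ESC2. All 7 genes of protein synthesis, folding and transport lay below 0 there, from -1.45 for Aars to -0.11 for Nup93. Of these, 2 were called lower. The largest positive differences were those of Chd9 (0.43), Nqo1 (0.42), Ctcf (0.40) and Nfatc3 (0.36), and for Ctcf and Nfatc3 the ESC2 arrays lay above all others, though the second probe set of Nfatc3 differed by -0.06. ESC2 was also the line with the highest actin ratio, and the part of RNA integrity in these values was not tested.

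IP20D-3 had the most called members after IP36D-3 in the upward direction, with 11 higher, beside 12.1% of all genes, and 8 lower, beside 10.4%. Of all genes with a mean of at least 6, 17.8% were called higher and 14.8% lower. These shares are near the 18.9% and 15.1% of the 53 members at that level. Cyld measured 7.76, 7.87 and 7.83 there, above all other arrays at 6.05, 6.81 and 7.71 (lowest, median and highest). Nfat5, higher by 0.89 ± 0.13, also lay above all other arrays. Rbl2 measured 6.18, 6.17 and 6.40 and 4.85 to 5.66 in the other arrays, levels too near background to give the size of its difference. In the other direction Irs2 measured 4.99, 5.04 and 5.29, all under 6 and below the other arrays, where the lowest was 5.47, and the size of this difference is not given because the IP20D-3 level is near background. Calr, a calcium-binding chaperone of the endoplasmic reticulum, was lower by 2.15-fold and Egln1, the prolyl hydroxylase that marks HIF1 alpha for degradation, by 2.05-fold, both below all other arrays. E2f4 was lower by 1.98-fold with overlap.

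In IP14D-101, 5 members were called higher, beside 7.74% of all genes, and 7 lower, beside 7.58%, and with equal array medians off chromosome 8 the split was 4 higher and 9 lower. At a mean of at least 6, 11.4% of all genes were called higher and 11.5% lower, against 9.43% and 13.2% of the 53 members. Galnt2 measured 8.84, 8.71 and 8.83 and was 2.26-fold above the mean of the other lines, while overlapping R1, and E2f4, Calr and Egln1 were higher by 0.90 ± 0.06, 0.74 ± 0.07 and 0.73 ± 0.07, also with overlap. Cyld, at 6.16, 6.05 and 6.11, lay below all other arrays and was 2.03-fold lower. Chd9 measured 8.27, 8.41 and 7.57 and Nfat5 6.26, 6.22 and 5.33, so that the third array was the lowest for each of these genes and widened their spread. Usp38 was 1.55-fold lower and did not overlap the other arrays. Primitive endoderm markers were high in this line, and their part in these differences was not tested.

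IP14D-1 had 3 members called higher, beside 3.52% of all genes, and 7 lower, beside 4.55%. At a mean of at least 6, 5.59% of all genes were called higher and 7.14% lower, against 5.66% and 13.2% of the 53 members. Without IP36D-3 among its comparators 3 were called lower, and against lines of the same strain label 13 were called lower and 6 higher. After Mt1 and Mt2, the highest members were Ankrd11, at 9.93, 10.16 and 9.78 and above all other arrays, and Irs2, at 0.38 ± 0.12 with overlap. Brd7, Asf1b and Polr2c were lower by 1.64-fold, 1.57-fold and 1.48-fold, and each lay below all other arrays. Psmb10 was lower by 1.71-fold and overlapped the others. Slc25a4, Nqo1 and Banp were the other members called lower, by 0.54, 0.53 and 0.53 on the log2 scale. IP36D-3 is 1 of the comparators of IP14D-1, and the 2 contrasts share arrays. In IP36D-3 the differences of Brd7, Asf1b, Polr2c and Psmb10 were 0.84, 0.52, 0.82 and 0.68. Feeder gene levels were the highest of the 6 lines here, and their part was not tested.

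**Figure D5:**
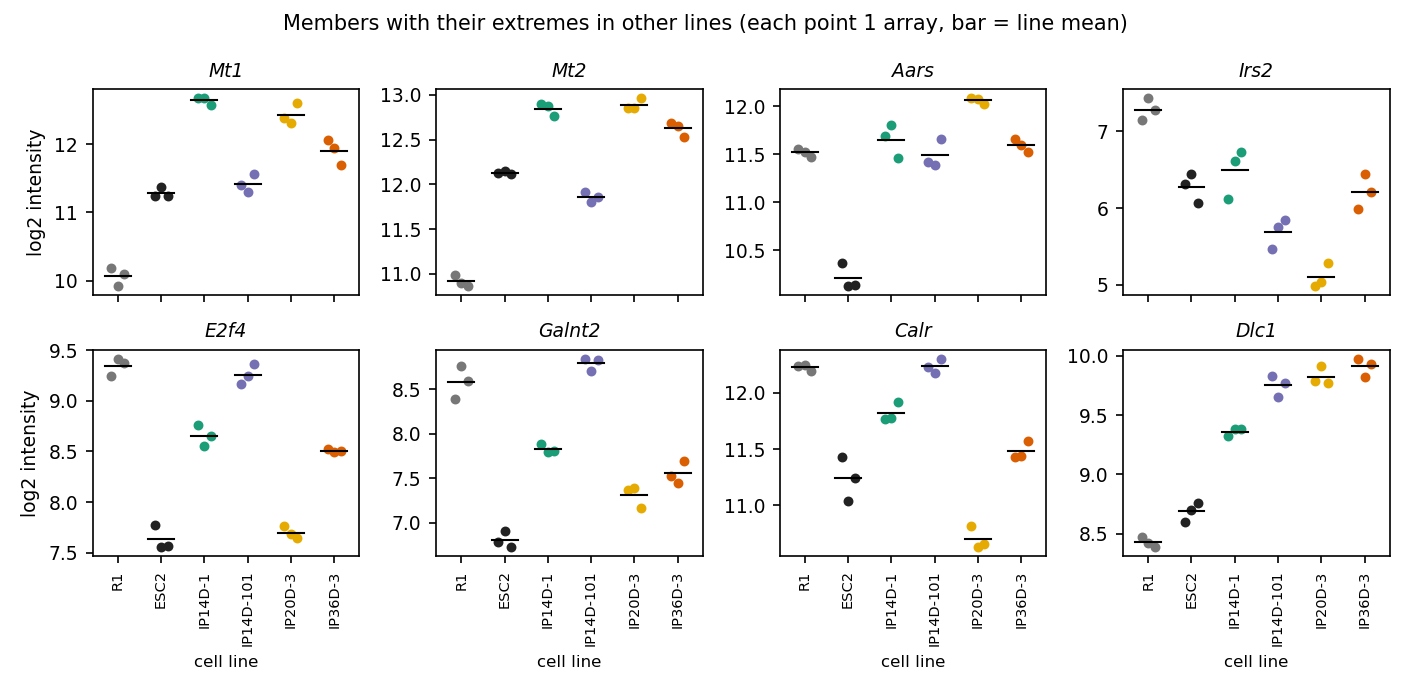
Log2 intensity (y axis) of 8 members in the 6 lines (x axis), with 1 point per array and a bar at the mean of the 3 arrays. Mt1 and Mt2 are lowest in R1, Aars is lowest in ESC2, Irs2 is highest in R1 and lowest in IP20D-3, and Dlc1 is lower in both ES lines than in the 4 iPS lines.

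The iPS and ES lines were also set against each other on the 6 line means, 4 iPS against 2 ES, by limma. This difference is a combination of the line contrasts that chose the members, so for the members it is a description. Over all 18193 genes 0 were called (0%), and 700 (3.85%) had an unadjusted p under 0.05. With all 18 arrays and the line as a random block, 43 of all genes were called. That fit took arrays as its units, although the cell type varies only between the 6 lines. Its calls are therefore not read as a difference between cell types. Dlc1 averaged 9.71 ± 0.24 (SD, n = 4 lines) in iPS and 8.56 ± 0.18 (SD, n = 2 lines) in ES lines, a difference of 1.15 ± 0.20 (SE). Its array values ran from 8.39 to 8.76 in the ES lines and from 9.32 to 9.97 in the iPS lines, so the groups did not overlap. By line means, Mt1 was also higher in every iPS line than in the ES lines. Cdh1, with a difference of -0.48 ± 0.21 (SE), and Irf2, near background, were lower in every iPS line. The share of all genes separated in this way is not given, so nothing is read from the separation. Mt1 differed by 1.42 ± 0.45 (SE) and Mt2 by 1.03 ± 0.42 (SE), and both were lowest in the ES line R1. With 2 ES lines of different strain, the cell type and the line cannot be told apart.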

How the data were processed

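The authors deposited probe set intensities on a linear scale, made with RMA (background correction, quantile normalisation and probe summary), per the design text and the submitters' notes on processing. No version of RMA is given in these sources. Quantile normalisation gives all arrays 1 distribution, so differences are relative to the other genes. The deposited intensities were taken to log2, 64 control probe sets of 45101 were left out, and 34945 had 1 symbol in the platform annotation, 932 several and 9160 none, the last 2 kinds unnamed. Chromosome and gene order came from the RefSeq table of GRCm38.p6, in which 34741 were found and 0 symbols changed. Each of 18193 genes was read from its probe set with the highest mean.

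All groups came from the labels. Line contrasts were fitted in limma 3.58.1 (R 4.3.3) with a mean per line over 18 arrays (12 residual degrees of freedom), iPS against ES on the 6 line means, with Benjamini-Hochberg adjustment over all genes. The 54 named gene values were, per line, the 4 largest differences each way whose higher side had a mean of at least 6, with, for IP36D-3, the members nearest a difference of 0.5, and other members are given by their differences. The members, roles and lists were chosen with earlier results of these data known. Deviations of arrays with the same replicate number correlated between -0.246 and 0.255 (median 0.0372), those of other arrays between -0.292 and 0.233 (median -0.026). The main fit did not pair arrays by number, and a batch shared by arrays of the same number was not tested. The alternatives covered scaling, probe set choice, a level filter, comparator lines, array weights, left-out arrays and the call rule. The line contrast fit was tested on simulated data with changes added in IP36D-3. Tables and plots used Python 3.11.15, pandas 2.3.3, numpy 2.4.6 and matplotlib 3.10.9.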

Additional observations from a re-analysis of the deposited data

Results flagged for a closer look

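Among the 56 measured members, 3 had an iPS line whose mean log2 intensity stood apart from the other 3 iPS lines, with a ratio of its gap to the whole range above Dixon's 95% critical value for 4 values. Chance alone gives about 1 such value in 20 groups, and 3 of 56 is near that rate. The members were chosen on differences between lines, so these values are a description. Hmgb2, a chromatin protein abundant in dividing cells, had a mean of 12.06 in IP14D-101 and 12.27 to 12.29 in the others (ratio 0.92). Bcar1, an adaptor at focal adhesions, had 8.19 in IP20D-3 and 9.0 to 9.14 in the others (ratio 0.856), and its probe set may share probes with related transcripts. Tcf25 had 10.03 in IP20D-3 and 10.33 to 10.38 in the others (ratio 0.855). Against the mean of the other 5 lines, its 4 other probe sets differed in IP20D-3 by -0.11, 0.05, 0.20 and -0.21. The causes were not tested.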

How the results depend on the processing

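Of 54 named values of a gene in a line, with 694 alternative values, 4 changed sign under 6 of them, and each of these 4 was a difference that had not been called. They were Ankrd11 in IP36D-3 (0.04 with the mean of probe sets, 0.08 with the second probe set), Galnt2 in IP36D-3 (0.21 with the second probe set, 0.24 against the same strain label), Calr in IP36D-3 (0.23 against that label) and Nfatc3 in ESC2 (-0.06 with the second probe set). The members' median in IP36D-3 stayed above 0 under every alternative run. That median was 0.30 with quantile normalisation repeated, 0.32 with the mean of all probe sets and also 0.32 with the second probe set (36 members), 0.39 for members with a mean of at least 6, 0.28 without ESC2 among the comparators, 0.48 against lines of the same strain label, 0.37 with array weights and 0.42 without probe sets of suffix s or x, a setting chosen after seeing the data (47 members). Leaving out 1 array gave 0.34 to 0.39. The 18 members called higher there became 11 of 36 with the second probe set, where fewer members could be tested, 1 with a log2 difference of at least 1 (0.555% of all genes) and 41 with no minimum difference (23.3%), and 17 to 18 with 1 array left out.

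In the other lines, centring on the median difference gave medians of -0.09 in R1, -0.09 in ESC2, -0.12 in IP14D-101 and 0.12 in IP20D-3, and equal array medians off chromosome 8 gave -0.11, -0.04, -0.14 and 0.11. Repeated quantile normalisation gave -0.16 in ESC2, -0.05 in IP14D-1 and 0.03 in IP20D-3. The mean of all probe sets gave -0.19 in ESC2, and the second probe set -0.28 in ESC2, -0.08 in IP14D-1, -0.15 in IP14D-101 and 0.24 in IP20D-3. Members with a mean of at least 6, and likewise those without suffix s or x, gave -0.16 in ESC2. Without IP36D-3 the medians were 0.10 in R1, -0.09 in ESC2, -0.04 in IP14D-1, 0.01 in IP14D-101 and 0.12 in IP20D-3, and without ESC2 -0.16 in IP14D-1, -0.09 in IP14D-101 and 0.02 in IP20D-3. Against lines of the same strain label they were -0.22 in ESC2 and -0.14 in IP14D-1. Leaving out 1 array gave -0.18 to -0.17 in ESC2 and 0.02 to 0.09 in IP20D-3. The causes of these shifts were not tested.

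Counts of called members moved by over 1.5 times as follows. In ESC2 the 0 higher became 2 with centring, 1 with repeated quantile normalisation or the mean of probe sets, 3 with equal medians or without IP36D-3 and 4 with the second probe set. In IP36D-3 the 0 lower became 1 with repeated quantile normalisation and 2 without ESC2. In IP14D-1 the 7 lower became 1 with the second probe set, 3 without IP36D-3 and 13 against the same strain label, and the 3 higher became 6 against that label. With the second probe set IP14D-101 had 9 higher and IP20D-3 had 5 lower. With a difference of at least 1 the higher and lower counts were 1 and 4 in R1, 0 and 4 in ESC2, 1 and 0 in IP14D-1, 1 and 1 in IP14D-101 and 2 and 3 in IP20D-3. With no minimum they were 18 and 17, 10 and 28, 10 and 24, 15 and 22, and 20 and 19 in the same order, and 3 were lower in IP36D-3.

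With the replicate block, 18 members were called higher in IP36D-3 and the median was 0.35, and the block changed no other count of calls between lines. Between iPS and ES lines, limma called 2 members with the line as a random block. With the replicate block added it called 1, where 31 of all genes were called, and with each other alternative run 0. Both fits with the line as a random block took arrays as their units, although the cell type varies only from line to line. Nothing is therefore read from their calls. Signals near background limit the genes with a mean under 6.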
